A study of Mus musculus with 2 samples.

Results

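The genes described here are 10 genes of the p53 response in the mouse, Cdkn1a, Mdm2, Eda2r, Trp53inp1, Ccng1, Phlda3, Bax, Sesn2, Rrm2b and Trp53 itself, chosen by name as those that DNA damage after Cre activity would be thought to raise. Earlier results of these data were known at that choice. Each symbol had 1 row among the 38355 genes of the authors' deposited table. All 10 had reads and all 10 were among its 13230 genes with an adjusted p-value. The study measured RNA of cardiac ventricles from 16-week-old C57BL/6 mice, with a Flox sample that carried Tbx5LDN/LDN and a vTBX5KO sample that carried Myh6-MerCreMer as well as Tbx5LDN/LDN. Mice of both genotypes received TX on 3 days when 12 weeks old, at a daily 30 mg/kg, and were killed 4 weeks after induction, so both groups share the drug and the floxed allele. The Myh6 promoter drives this Cre recombinase in cardiomyocytes, and a ligand of its oestrogen receptor parts switches it on. No label names a group with the Cre but without the Tbx5 allele, so Cre activity and loss of Tbx5 cannot be told apart in this comparison. Neither is it stated how many mice stand behind a sample.

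The deposited values compare a group B with a group A, and the sources used here do not say which letter is which genotype. Every difference below is therefore B relative to A, on the log2 scale unless a fold is named, and it is no statement on the knockout. The deposited means resolved into 3 libraries per letter, A1 to A3 and B1 to B3, numbered by depth, with size factors from 0.607 in A3 to 1.56 in B1. The sources used here give no total reads per library. They also do not say whether 1 mouse or several supplied the 3 libraries of a letter, and p-values below therefore reflect library-to-library spread alone, part of which may be technical. The cardiomyocyte genes Ttn, Myh6 and Atp2a2 had means of 1263444, 579178 and 275869 normalized counts in the authors' deposited table, while none of 7 lymphocyte markers had an adjusted p there. In such bulk tissue, fewer cells of a type and less RNA per cell cannot be told apart.

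The protein p53, encoded by Trp53, is a transcription factor that is kept low by the ubiquitin ligase Mdm2 and is stabilised when DNA is damaged. It binds paired half-sites in DNA and raises genes that halt the cell cycle, such as Cdkn1a, that favour cell death, such as Bax, and that supply nucleotides for repair, such as Rrm2b. Mdm2 is itself a p53 target, which closes a feedback loop. Adult cardiomyocytes rarely divide, and activated MerCreMer is known as a possible source of DNA damage in them.

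Promoter windows from 250 bases before to 50 bases after a transcription start were held in RefSeq (GRCm38.p6) for 8 of the 10 genes, in 9 windows, and not for Trp53inp1 and Rrm2b. They are shown because p53 acts on these genes through half-sites in DNA. A script searched for the p53 half-site consensus of 10 bases, which reads alike on both strands. An exact half-site was present in 5 of 9 windows, those of Bax, Mdm2, Ccng1, Trp53 and the upstream start of Cdkn1a, against 8.36% of 32851 windows of all genes. A pair of half-sites 0 to 13 bases apart with at most 1 mismatch was present in 3 of 9 windows, against 1.09% of all. The exact pair was found for Cdkn1a alone among the 9 windows, and in 0.0731% of all. These windows follow, 5′ to 3′ on the gene's strand, with that of Eda2r, which had the largest difference of the 10 genes and whose window held none. Capitals mark exact half-sites and, in each window, only the pair with the fewest mismatches.
Cdkn1a, upstream start, chr17:29090729-29091028, plus strand: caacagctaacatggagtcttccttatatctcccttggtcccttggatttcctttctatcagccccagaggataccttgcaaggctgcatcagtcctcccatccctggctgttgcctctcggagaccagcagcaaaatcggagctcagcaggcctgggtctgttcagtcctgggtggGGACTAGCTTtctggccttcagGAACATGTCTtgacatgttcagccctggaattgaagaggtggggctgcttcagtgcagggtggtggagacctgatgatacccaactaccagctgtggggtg
Ccng1, chr11:40755237-40755536, minus strand: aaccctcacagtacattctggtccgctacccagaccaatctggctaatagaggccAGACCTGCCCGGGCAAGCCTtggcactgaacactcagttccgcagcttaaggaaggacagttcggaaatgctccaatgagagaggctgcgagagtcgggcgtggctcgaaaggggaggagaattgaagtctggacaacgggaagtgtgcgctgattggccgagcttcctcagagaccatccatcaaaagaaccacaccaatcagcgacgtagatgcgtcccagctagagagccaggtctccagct
Bax, chr7:45466849-45467148, minus strand: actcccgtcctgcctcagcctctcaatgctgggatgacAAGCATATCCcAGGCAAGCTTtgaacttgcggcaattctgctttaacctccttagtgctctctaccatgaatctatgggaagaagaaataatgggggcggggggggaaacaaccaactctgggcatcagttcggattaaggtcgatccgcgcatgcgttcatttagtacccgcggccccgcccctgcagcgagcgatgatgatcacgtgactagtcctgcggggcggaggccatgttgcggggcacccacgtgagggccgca
Eda2r, chrX:97377160-97377459, minus strand: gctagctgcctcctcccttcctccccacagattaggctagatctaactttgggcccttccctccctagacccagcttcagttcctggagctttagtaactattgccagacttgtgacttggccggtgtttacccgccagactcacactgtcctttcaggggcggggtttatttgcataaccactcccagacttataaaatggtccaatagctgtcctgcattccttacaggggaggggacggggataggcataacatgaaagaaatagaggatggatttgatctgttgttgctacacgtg
The marked pair of Cdkn1a, the exact one, began 73 bases before that start with a spacer of 12 bases. Directly after it, tgacatgttc matches the half-site with 1 mismatch. It forms another pair, without a spacer, that was not marked. The pair of Ccng1 began 195 bases before its start with no spacer, and that of Bax 212 bases before its start with a spacer of 1 base. A match of letters is no measure of binding, and sites outside these windows, such as those known in the first intron of Mdm2, were not searched.

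None of the 10 genes was called at an adjusted p under 0.05 in the authors' deposited table, where 3.98% of all tested genes were called, 1.5% higher and 2.49% lower in B. None passed 0.01 either, where 2.22% did, 0.733% higher and 1.49% lower. Their differences went in both directions, with 6 above 0 and 4 below, beside 49.9% above 0 among all tested genes. The median was 0.11, beside -0.00 over all tested genes, and the median size regardless of sign was 0.18 beside 0.16. Unadjusted p-values are not in that table, but the largest that each adjusted p allows can be computed. By that bound 3 of the 10, Eda2r, Trp53inp1 and Rrm2b, had an unadjusted p under 0.05, where 14.8% of all tested genes did, 6.82% higher and 8% lower. The same 3 lay under an adjusted p of 0.1, where 5.91% of all tested genes did. Of the 3, 2 were higher in B, beside 2.32% of all tested genes, and 1 was lower, beside 3.59%. In a limma-voom fit of the recovered reads, 0 of 6 resolved members were called and 1 of 6 had an unadjusted p under 0.05. Among all 5836 genes of that fit 0.651% were called, and 13.5% had an unadjusted p under 0.05.

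**Figure D1:**
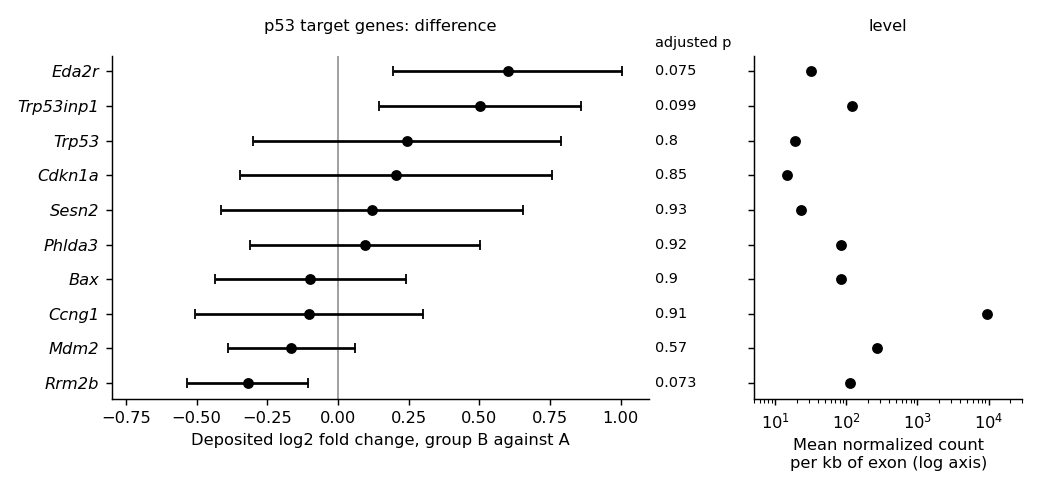
Left, the authors' deposited log2 fold change of group B against A for each of the 10 genes (point). The bar is a nominal 95% interval from the largest standard error that the adjusted p allows, and its true coverage is not known. Right, the mean normalized count per kb of exon on a log axis. The intervals of Eda2r, Trp53inp1 and Rrm2b leave out 0 while their adjusted p stays above 0.05, and Ccng1 stands apart by level.

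By level these genes spanned a wide range. Per kb of annotated exon, Ccng1 had 9449 normalized counts, Mdm2 266, Trp53inp1 120, Rrm2b 114, Phlda3 83.9, Bax 83.2, Eda2r 31.4, Sesn2 23.3, Trp53 18.7 and Cdkn1a 14.6. Cyclin G1 was 35.6 times the level of Mdm2, the next in order, and its mean of 33185 normalized counts lay at percentile 99.7 of tested genes in the authors' deposited table. At the other end, the Cdkn1a mean of 51.9 normalized counts lay at percentile 14.8 there. Most neighbours in the lower part of this order overlapped between libraries. Over the 6 libraries, counts per kb ran from 66.8 to 109 for Phlda3 and from 73.3 to 94.4 for Bax. They ran from 23.5 to 48.0 for Eda2r, 16.6 to 34.7 for Sesn2, 11.9 to 29.9 for Trp53 and 8.85 to 20.8 for Cdkn1a. Each of these 4 overlapped the next, and Phlda3 overlapped Bax, but Bax and Eda2r did not overlap. The spread of the 4 most abundant genes over libraries is not known, since their means were too large to resolve into reads.

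Among regulators of p53, Trp53 (ENSMUSG00000059552, chromosome 11, 69580359 to 69591873 on GRCm38) had 64.0, 62.8 and 77.4 normalized reads in A1, A2 and A3, and 121, 81.3 and 48.3 in B1, B2 and B3. The groups overlapped, with B1 the highest and B3 the lowest of all 6 libraries. The means were 68.1 ± 8.11 in A and 83.4 ± 36.3 in B (SD, n = 3 libraries), and the log2 fold change was 0.24 with adjusted p = 0.795 by the authors' deposited table. In the limma-voom fit it was 0.28 ± 0.31 (SE) with an adjusted p of 0.735, and the 95% interval of the difference ran from 0.765-fold to 1.93-fold. Without B3 that fit gave 0.58 with an unadjusted p of 0.0240 and an adjusted p of 0.160. In that setting 1267 of 5831 genes had an unadjusted p under 0.05, against 787 of 5836 with all libraries. Without B1 the value of Trp53 was -0.05 with an adjusted p of 0.958. Its processed pseudogene Trp53-ps had a mean of 0.439 normalized counts in the authors' deposited table, and the sources used here do not say how reads matching both were counted.

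Mdm2 (ENSMUSG00000020184, chromosome 10, 117688888 to 117710758), the ligase that removes p53, had a mean of 1351 normalized counts and a log2 fold change of -0.17 by the authors' deposited table, with a standard error no larger than 0.11 and adjusted p = 0.572. The interval from that standard error ran from 0.763-fold to 1.04-fold. Ccng1 (ENSMUSG00000020326, chromosome 11, 40748552 to 40755311), which encodes cyclin G1, a p53 target that recruits a phosphatase to Mdm2, stood at -0.10 with a standard error no larger than 0.21 and adjusted p = 0.914 in the authors' deposited table. Its interval ran from 0.705-fold to 1.23-fold.

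Cdkn1a (ENSMUSG00000023067, chromosome 17, 29090979 to 29100722) encodes p21, the inhibitor of cyclin-dependent kinases through which p53 halts the cell cycle. It had 53.6, 50.3 and 37.9 normalized reads in A1, A2 and A3, and 64.6, 73.9 and 31.4 in B1, B2 and B3. Both B1 and B2 lay above all libraries of A, and B3 lay below all of them. The group means were 47.3 ± 8.29 and 56.6 ± 22.3 (SD, n = 3 libraries), and the log2 fold change was 0.20 with adjusted p = 0.850 by the authors' deposited table. The limma-voom fit gave 0.21 ± 0.32 (SE), an adjusted p of 0.822 and a 95% interval from 0.712-fold to 1.88-fold. Without B3 that fit gave 0.51 with an adjusted p of 0.216. In that setting 256 of 5831 genes were called, 205 higher in B and 51 lower. Without B2 the value of Cdkn1a was -0.01 with an adjusted p of 0.994. Its exons share 273 bases with those of AC167363.2 on the opposite strand.

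Of the genes tied to cell death, Eda2r showed the largest difference of the 10. Eda2r (ENSMUSG00000034457, chromosome X, 97333840 to 97377216) encodes a receptor of the tumour necrosis factor family that binds ectodysplasin A2. The reads of Eda2r, Bax and Phlda3, whose means lie above 100, are less certain than those of the other 3 resolved genes. Their set of reads was the 1 with a spread within letters of at most 0.6 on the log2 scale, and for Eda2r it was chosen that way from 25 sets. That choice favours a small spread, so the SDs, the tests on reads and the lack of overlap of such genes depend on it. The set also had to lie near the deposited fold change, so the reads are no separate check of that value, which itself does not depend on the choice. By that set Eda2r had 143, 146 and 138 normalized reads in A1, A2 and A3, and 171, 231 and 283 in B1, B2 and B3. All libraries of B lay above all of A, as for 12.1% of the 5035 tested genes whose reads were resolved. The libraries of A lay close together, and those of B spanned 1.66-fold. The means were 142 ± 3.70 and 228 ± 56.2 (SD, n = 3 libraries), a ratio of 1.60. The authors' deposited table gave Eda2r 0.60 on the log2 scale, or 1.52-fold, with a standard error no larger than 0.21 and adjusted p = 0.0752. The limma-voom fit gave 0.64 ± 0.20 (SE) with an unadjusted p of 0.00863 and an adjusted p of 0.213, and its 95% interval ran from 0.20 to 1.09 on the log2 scale. An exact two-sided permutation test over the libraries gave p = 0.1, the smallest that 3 against 3 allows. Without B1 the fit called it, at 0.84 with an adjusted p of 0.0277, where 1.35% of 5780 genes were called. With each of the other libraries left out in turn it was not called.

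**Figure D2:**
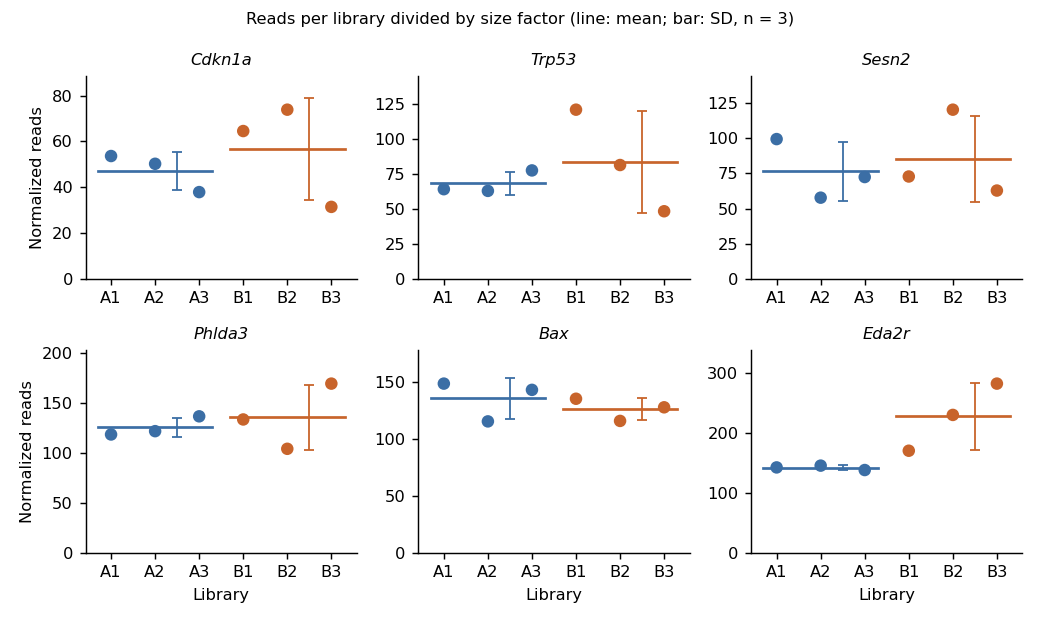
Normalized reads (recovered reads divided by the library's size factor) in each of the 6 libraries for the 6 genes that resolved, with A in blue and B in orange, group means as lines and SD (n = 3) as bars. Eda2r is the 1 gene of the 6 whose groups do not overlap, and B3 is lowest for Cdkn1a and Trp53 and highest for Eda2r and Phlda3.

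Bax (ENSMUSG00000003873, chromosome 7, 45461695 to 45466898), which permeabilises the outer mitochondrial membrane, had 149, 116 and 143 normalized reads in A1, A2 and A3, and 135, 116 and 128 in B1, B2 and B3. The groups overlapped almost fully. Its log2 fold change was -0.10 with adjusted p = 0.895 by the authors' deposited table. The limma-voom value was -0.11 ± 0.18 (SE) with a 95% interval from 0.711-fold to 1.21-fold, the narrowest of the 6 resolved genes. Its exons share 192 bases with the annotated gene Gm45808 on the same strand.

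Phlda3 (ENSMUSG00000041801, chromosome 1, 135766119 to 135769136), a lipid-binding protein that restrains the survival kinase Akt, had 119, 122 and 137 normalized reads in A1, A2 and A3, and 134, 104 and 170 in B1, B2 and B3. Group B held both the lowest and the highest library. The log2 fold change was 0.10 with adjusted p = 0.923 by the authors' deposited table, and the limma-voom interval ran from 0.768-fold to 1.43-fold. With 1 library left out the limma-voom value lay between -0.07, without B3, and 0.25, without B2. Trp53inp1 (ENSMUSG00000028211, chromosome 4, 11156431 to 11174379), a nuclear protein that promotes p53 phosphorylation and autophagy, had a mean of 776 normalized counts, too many to resolve. Its log2 fold change was 0.50, or 1.42-fold, with a standard error no larger than 0.18 and adjusted p = 0.0989 in the authors' deposited table. The interval from that standard error ran from 1.11-fold to 1.82-fold.

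The remaining members act in metabolism and repair. Sesn2 (ENSMUSG00000028893, chromosome 4, 132492032 to 132510501) encodes sestrin 2, a leucine sensor that restrains the growth kinase complex mTORC1. It had 99.5, 57.8 and 72.5 normalized reads in A1, A2 and A3, and 72.9, 120 and 62.9 in B1, B2 and B3, so the groups overlapped. Its log2 fold change was 0.12 with adjusted p = 0.926 by the authors' deposited table, and the limma-voom interval ran from 0.704-fold to 1.67-fold. With 1 library left out the limma-voom value lay between -0.16, without B2, and 0.37, without A1. Rrm2b (ENSMUSG00000022292, chromosome 15, 37923952 to 37961318) encodes the ribonucleotide reductase subunit that makes deoxynucleotides in cells that do not divide. It stood at -0.32, or 0.801-fold, with a standard error no larger than 0.11 and adjusted p = 0.0728, the smallest among the 10, in the authors' deposited table. The interval from that standard error ran from 0.690-fold to 0.930-fold. Its exons share 734 bases with Gm49085 on the opposite strand, and the sources used here do not say whether counting used strand. Gm49085, AC167363.2 and Gm45808 have no row of their own in the authors' deposited table.

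**Figure D3:**
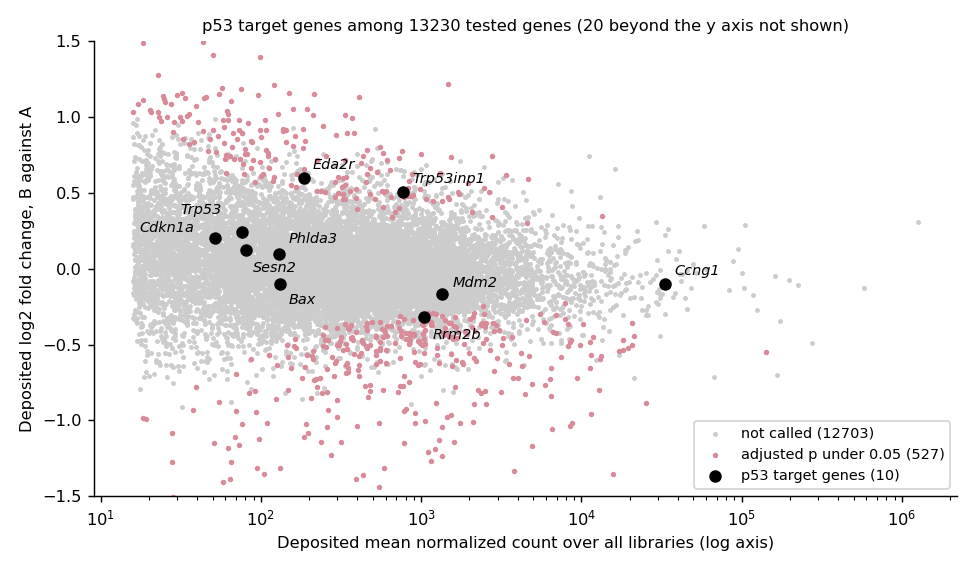
The authors' deposited log2 fold change of B against A over the mean normalized count (log axis) for 13230 tested genes, with calls at an adjusted p under 0.05 in pink and the 10 p53 genes in black. All 10 lie among uncalled genes, and 20 genes beyond 1.5 on the log2 scale are outside the plot.

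The 6 resolved genes were highest in different libraries. In group B, Trp53 was highest in B1, Cdkn1a and Sesn2 were highest in B2, and Eda2r and Phlda3 were highest in B3. The coefficient of variation within B was 39.4% for Cdkn1a, 43.5% for Trp53, 36.0% for Sesn2, 24.6% for Eda2r, 24.1% for Phlda3 and 7.77% for Bax. Within A it was 17.5%, 11.9%, 27.6%, 2.60%, 7.71% and 13.1% in the same order. Summed over the 6 genes, normalized reads were 627, 554 and 606 in A1, A2 and A3, and 698, 726 and 723 in B1, B2 and B3. These groups did not overlap, but Eda2r, Bax and Phlda3 make up most of each sum. Over Cdkn1a, Trp53 and Sesn2, with means under 100, the sums were 217, 171 and 188 in A and 258, 276 and 143 in B, and the groups overlapped. Without Eda2r the sums were 485, 408 and 468 against 527, 496 and 440, and the groups overlapped.

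**Figure D4:**
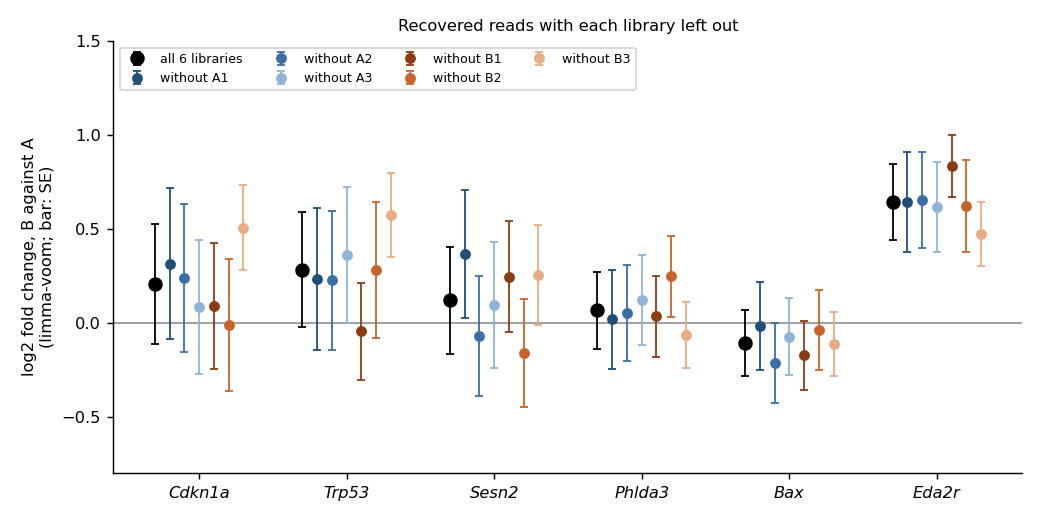
The limma-voom log2 fold change of B against A with its SE, for the 6 resolved genes with all libraries (black) and with each library left out. Eda2r stays between 0.47 and 0.84, and the values of Cdkn1a, Trp53, Sesn2 and Phlda3 lie on both sides of 0.

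The lists from here on were also chosen with earlier results of these data known. A wider list of 48 other p53 targets had 47 matches in the authors' deposited table, 40 of them tested. There 1 was called higher in B, none lower and 39 were not called, that is 2.50% beside 3.98% of all tested genes. The median was 0.01, with 21 values above 0 and 19 below, beside 49.9% above 0 among all tested genes. By the bound 10 of the 40 (25%) had an unadjusted p under 0.05, beside 14.8% of all tested genes. Of the 11 tested genes of the list with resolved reads, 3 had groups that did not overlap (27.3%), beside 19.4% of all such genes. These were Ckap2 and Tap1, a peptide transporter of antigen presentation, higher in B, and Bbc3, lower. The called gene was Ckap2, a spindle protein of dividing cells, at 1.00 with adjusted p = 0.0360 by the authors' deposited table. It had 13.8, 16.3 and 4.94 normalized reads in A1, A2 and A3, and 30.7, 25.1 and 47.1 in B1, B2 and B3, with no overlap. In the limma-voom fit its adjusted p was 0.179. Next in order of adjusted p by the authors' deposited table came Fbxw7, a ubiquitin ligase subunit, at -0.37 (adjusted p 0.0591) and Trp53i11 at -0.44 (adjusted p 0.0941). The antiproliferative gene Btg2 at -0.80, the ligase Rchy1 at -0.24 and Bbc3, which encodes the death protein Puma, at -0.68 followed there. Bbc3 had 35.5, 40.2 and 46.1 normalized reads in A1, A2 and A3, and 27.5, 10.3 and 25.8 in B1, B2 and B3. Its groups did not overlap, and its adjusted p was 0.223 in the authors' deposited table.

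No marker of dividing cells was called. All 5 tested of 8 had a value above 0 in the authors' deposited table, beside 49.9% of all tested genes, with a median of 0.33. Among those not tested, Ccnb1 stood at 0.52 and Bub1 at 0.10, and Birc5 lay below 0 at -0.05. Mki67 stood at 0.51 with an adjusted p of 0.417, Top2a at 0.26 and Ccna2 at 0.48 in the authors' deposited table. Reads of all 8 were resolved, and their summed normalized reads were 444, 421 and 206 in A1, A2 and A3 and 574, 406 and 549 in B1, B2 and B3. Mki67 and Top2a, with means above 100, hold most of these reads under the limit given for Eda2r. The groups overlapped, since B2 lay below A1 and A2. The lowest sum was in A3, where Ckap2 was lowest too. Their part in the call of Ckap2 was not tested.

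Of 26 genes that regulate p53, 23 were tested, with 0 calls by the authors' deposited table, beside 3.98% of all tested genes. By the bound 2 (8.70%) had an unadjusted p under 0.05, beside 14.8% of all tested genes. The median of the regulators was 0.15, with 15 above 0 and 8 below, beside 49.9% above 0 among all tested genes. The smallest adjusted p was that of Prkdc, the DNA-dependent protein kinase, at 0.39 with adjusted p = 0.214 by the authors' deposited table. It was followed there by the acetyltransferase Ep300 (0.57), the deubiquitinase Usp7 (0.20), the p53 inhibitor Mdm4 (0.32), the methyltransferase Smyd2 (-0.20) and the damage kinase Atr (0.23).

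Of 24 genes of DNA break sensing and repair, 23 were tested. Here 1 was called higher, none lower and 22 were not called in the authors' deposited table, that is 4.35% beside 3.98% of all tested genes. The called gene was Rad50, which encodes part of the complex that binds broken ends, at 0.46 with a standard error no larger than 0.14 and adjusted p = 0.0241 in the authors' deposited table. Over the list the median was 0.08, with 14 above 0 and 9 below, beside 49.9% above 0 among all tested genes. By the bound 5 of the 23 (21.7%) had an unadjusted p under 0.05, beside 14.8% of all tested genes. Brca2, a recombination protein, stood at 0.58 with adjusted p = 0.124 by the authors' deposited table. It had 98.6, 81.7 and 65.9 normalized reads in A1, A2 and A3, and 138, 154 and 102 in B1, B2 and B3. Dclre1c, the end-processing nuclease Artemis, stood at 0.48 with an adjusted p of 0.192 there, at 103, 104 and 65.9 against 139, 142 and 119 normalized reads. H2afx, the histone that is phosphorylated at breaks, stood at -0.51 with adjusted p = 0.289 by the authors' deposited table. It had 51.5 normalized reads or more in each library of A and 48.6 or fewer in each of B. Parp1 stood at -0.28 and Fancd2 at 0.56 in the authors' deposited table. Of the 11 tested genes of the list with resolved reads, 5 had groups that did not overlap (45.5%), beside 19.4% of all such genes. Brca2, Dclre1c, Rad52 and Fancd2 lay higher in B and H2afx lower, and none of these 5 was called. Brca2, Dclre1c and Rad52 have means above 100, so their reads carry the same limit as those of Eda2r. Summed over the 12 resolved genes of this list, normalized reads ran from 806 to 861 in A and from 999 to 1063 in B. Most of these reads belong to the 5 genes with means above 100, under the same limit. Over the 7 genes with means under 100 the sums ran from 209 to 239 in A and from 213 to 276 in B, and the groups overlapped.

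**Figure D5:**
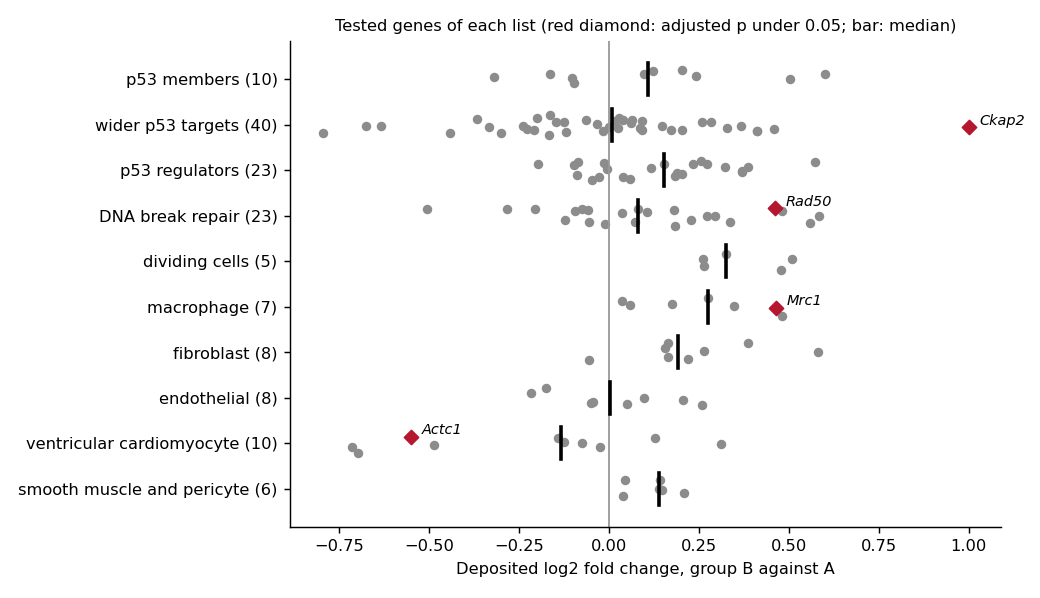
The authors' deposited log2 fold change of B against A for each tested gene (point) of the p53 genes, the 3 wider lists and 6 lists of cell markers, with the number tested in brackets, the median as a bar and calls as red diamonds. The medians of the p53 genes and their wider targets, 0.11 and 0.01, lie close to 0.

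Other cell types were read beside these genes. Of 10 cardiomyocyte markers, 1 (10%) was called lower (Actc1) in the authors' deposited table, with a median of -0.13. Of 7 tested macrophage markers 1 (14.3%) was called higher there, Mrc1 at 0.46, with a median of 0.27. Among all tested genes 2.49% were called lower and 1.5% higher. Values above 0 numbered 2 of 10 for cardiomyocytes and 7 of 7 for macrophages, beside 49.9% of all tested genes. An unadjusted p under 0.05 by the bound was held by 4 of 10 (40%) and 3 of 7 (42.9%), beside 14.8% of all tested genes. No marker was called in that table among 8 of fibroblasts (median 0.19), 8 of endothelium (0.00), 6 of smooth muscle and pericytes (0.14) and 2 tested of 5 of neutrophils (0.02). Values above 0 numbered 7 of 8, 4 of 8, 6 of 6 and 1 of 2 in that order. An unadjusted p under 0.05 by the bound was held by 1 of 8, 0 of 8, 0 of 6 and 0 of 2. The summed normalized reads of the 7 lymphocyte markers ran from 22.5 to 32.9 in A and from 23.6 to 45.4 in B. Whether cell makeup moved the p53 genes was not tested.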

How the data were processed

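RNA of mouse cardiac ventricles was sequenced, and 1 table of a comparison of group B with group A was used. Per the submitters' processing notes the tools included Bowtie2 2.0 and DESeq2 with build mm9, with no role or order given, and the sources used here do not describe read counting. Its columns, per the file headers, are for each gene a mean normalized count, a signal pooled over all libraries, a log2 fold change of the authors and their adjusted p-value. The coordinates of 7 of the 10 genes are identical in GENCODE M21, so they are given as GRCm38. The 10 genes and the lists were chosen with earlier results of these data known. Every one of the 10 is named, and from each wider list the 6 tested genes with the smallest adjusted p.

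A gene was called at a deposited adjusted p under 0.05. The Benjamini-Hochberg adjustment was inverted to give the largest p each allows, and from it, with the log2 fold change, the largest standard error. For low genes such as Ckap2 the deposited fold change is smaller than the ratio of the recovered group means. The true coverage of intervals centred on deposited fold changes is therefore not known. Genes with 1 read in 1 library share a mean, which gave 6 steps (100 genes or more at each). Whether such genes' fold change was above or below 0 gave the step its letter. Means were then solved as whole reads times steps. Of 13403 genes with a mean under 100, 13366 (99.7%) had exactly 1 solution, within a relative 4.88e-15 for means above 1 count. From 100 to 200, 1704 of 1863 genes (91.5%) had exactly 1 solution near the deposited fold change with a spread within letters of at most 0.6 on the log2 scale, a limit that leaves out genes of larger spread. Bax, Phlda3 and Eda2r were solved that way. For Eda2r the chosen set had a spread of 0.26 and the next of 25 candidates 0.75. Bax had 2 candidates, the other with a spread of 1.86, and Phlda3 had only 1. The limit on spread favours sets with tight groups. Recovery was tested on simulated data and on means moved off their value. In the former, all 990 genes with a mean under 100 were resolved, and 100% of these were right. Of 263 with a mean from 100 to 200, 95.8% were resolved, and 99.6% of the resolved were right. Of means moved off their value, 37 of 200 between 100 and 200 and 5 of 100 between 40 and 100 also found exactly 1 set. By the moved means, a solution is thus not certain in either range, and less so above 100. Reads of genes with a mean of at least 10 were fitted with limma-voom (limma 3.58.1, R 4.3.3) with the recovered size factors, adjusted over 5836 genes. Alternatives left out each library or changed the scaling, the filter on low reads, the call threshold or the model. Intervals cover the spread between libraries only.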

Additional observations from a re-analysis of the deposited data

How the results depend on the processing

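No paired analysis was possible because the labels give 1 sample per group and the letters carry no replicate numbers. At an adjusted p under 0.1 in the authors' deposited table, 3 of the 10 p53 genes and 3 of the 40 tested wider targets passed, beside 5.91% of all tested genes. Those 3 wider targets were 1 higher and 2 lower in B. At 0.01 none of the 10, of the wider targets, of the regulators or of the repair genes passed, where 2.22% of all tested genes did. The counts of 1 for the wider targets and for repair thus became 0. With a mean of at least 100 the count of wider targets was also 0, since Ckap2 has a mean of 23.0. Over the 7 of the 10 p53 genes with such a mean the median was -0.10, against 0.11 over all 10, since Cdkn1a, Sesn2 and Trp53, all above 0, drop out. In the recovered-read fit, 0 to 1 members were called with each library left out, Eda2r without B1 being the 1, and 0 under the other 4 alternatives. The median difference over all genes of that fit was 0.08, so they leaned towards B, and it was 0.02 with TMM factors. The values of all 6 resolved members were lower with TMM factors, for example 0.59 for Eda2r and 0.01 for Phlda3. Uncalled values that crossed 0 were those of Cdkn1a without B2, Phlda3 without B3, Sesn2 without A2 or B2 and Trp53 without B1. The fit called 38 genes in all (19 higher, 19 lower), 27 with TMM factors (8 higher, 19 lower) and 160 without the filter (113 higher, 47 lower). With the model limma-trend it called 43 with pseudocount 1 and 45 with 0.5, and with 1 library left out 3 to 256, the most without B3 (205 higher, 51 lower). The cause was not tested. Cdkn1a rests on as few as 23 reads in A3 and 28 in B3.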
